A study of Homo sapiens with 6 samples.

Results

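Neddylation is the attachment of NEDD8, a small ubiquitin-like protein, to the cullin scaffolds of the largest family of ubiquitin ligases. An E1 made of NAE1 and UBA3 activates NEDD8 and hands it to 1 of 2 E2 enzymes, UBE2M or UBE2F, which pass it to a cullin with the help of a RING protein such as RBX1. CUL2 is a cullin that carries, through elongins B and C, exchangeable substrate receptors, and KLHDC2, KLHDC3 and KLHDC10 are receptors of this kind that read the C-terminal end of their substrates. The 10 genes described here are these NEDD8 pathway and CUL2 genes, taken by symbol from GENCODE release 29 among the 58780 genes of the deposited tables. All 10 had enough reads to be tested, as did 19725 genes in all. The genes were chosen by their function and with their log2 fold changes between auxin and DMSO in view, so those values are given as a description and carry no p-value.

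The RNA came from HCT116, an established human colorectal carcinoma cell line, in 2 groups of 3 biological replicates each. One group had 16 h of auxin and the other had DMSO, the solvent, as its control. Auxin is a plant hormone used to trigger the breakdown of a protein fused to a degron, but the labels name neither that protein nor any tag or transgene, and give no length for the DMSO treatment. Whether the replicates are separate cultures of 1 clone is not given in the sources used here. Libraries held 234037969 to 625895062 expected counts, which are estimated read numbers, and replicate 1 was the deepest library of each group and stood apart from replicates 2 and 3 of its group. The 5 epithelial markers EPCAM, KRT8, KRT18, KRT19 and CDH1 summed to 1724 to 2374 TPM in DMSO and 2207 to 2646 TPM after auxin, while 4 markers of leukocytes, fibroblasts and endothelium summed to 1.29 to 2.62 TPM and 0.56 to 1.35 TPM, with PTPRC at 0 in all 6 libraries. CPM, counts scaled to a common library size, are used below to compare a gene across libraries, and TPM, which also divides by length, to compare genes with each other. Both are shares of a library, and in these bulk samples fewer cells expressing a gene and less of its RNA per cell cannot be told apart.

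Sequences are shown for the starts of the 2 gene pairs that the results turn on, and for the pieces of transcript that separate the isoforms described further down. The promoters are 300 bases each, from 250 before to 50 after the start annotated in RefSeq on GRCh38.p14, 5′ to 3′ on the gene's strand. Of the 10 genes, 9 had an entry in that table and KLHDC10 had none. Capitals mark matches, on either strand, to the GC box (GGGCGG), the CCAAT box (CCAAT), the ETS core (CCGGAAG) and the cAMP-response half-site (TGACG). The windows are chr19:58558562-58558861 on the minus strand for UBE2M, chr2:237966764-237967063 on the plus strand for UBE2F, chr6:43013999-43014298 on the plus strand for KLHDC3 and chr14:49767903-49768202 on the plus strand for KLHDC2.
UBE2M promoter: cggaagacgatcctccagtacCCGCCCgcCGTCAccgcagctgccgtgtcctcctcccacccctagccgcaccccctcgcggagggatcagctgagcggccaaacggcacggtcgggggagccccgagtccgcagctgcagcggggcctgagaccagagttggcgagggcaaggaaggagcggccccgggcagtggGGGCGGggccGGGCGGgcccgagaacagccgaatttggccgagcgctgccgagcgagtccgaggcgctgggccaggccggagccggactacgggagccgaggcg
UBE2F promoter: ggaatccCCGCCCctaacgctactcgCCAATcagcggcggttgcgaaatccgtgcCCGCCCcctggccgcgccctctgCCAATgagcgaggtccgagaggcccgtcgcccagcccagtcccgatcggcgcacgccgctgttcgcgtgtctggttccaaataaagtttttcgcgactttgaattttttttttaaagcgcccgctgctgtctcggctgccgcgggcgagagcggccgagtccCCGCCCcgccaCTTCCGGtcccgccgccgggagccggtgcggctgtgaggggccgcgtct
KLHDC3 promoter: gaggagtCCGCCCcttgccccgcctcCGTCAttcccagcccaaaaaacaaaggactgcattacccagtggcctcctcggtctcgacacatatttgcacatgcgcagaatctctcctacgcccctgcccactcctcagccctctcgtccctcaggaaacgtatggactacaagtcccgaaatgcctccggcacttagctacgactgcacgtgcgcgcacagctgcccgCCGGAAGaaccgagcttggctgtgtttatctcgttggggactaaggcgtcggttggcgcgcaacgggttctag
KLHDC2 promoter: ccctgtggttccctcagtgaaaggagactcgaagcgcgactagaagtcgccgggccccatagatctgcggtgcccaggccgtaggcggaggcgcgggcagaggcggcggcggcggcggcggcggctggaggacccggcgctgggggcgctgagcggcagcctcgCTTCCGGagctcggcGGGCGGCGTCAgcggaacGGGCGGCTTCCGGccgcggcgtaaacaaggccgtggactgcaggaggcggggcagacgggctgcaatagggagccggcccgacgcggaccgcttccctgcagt

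The UBE2M window held 3 GC boxes and 1 half-site, and the UBE2F window 3 GC boxes, 2 CCAAT boxes and 1 ETS core. The KLHDC3 window held 1 GC box, 1 ETS core and 1 half-site, and the KLHDC2 window 2 GC boxes, 2 ETS cores and 1 half-site, with GC box letters running directly into the half-site and into the second ETS core. These letters are common: of 35116 promoters of the same length in the table, 45.0% held the GC box, 34.6% the CCAAT box, 24.6% the half-site and 10.3% the ETS core. GC content of the window was 74.3% for UBE2M, 67.7% for UBE2F, 59.7% for KLHDC3 and 74.0% for KLHDC2, beside a median of 58.7% over all promoters in the table. A match is a string of letters and not a measured binding site.

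After 16 h of auxin, UBE2M and KLHDC3 were far lower than in DMSO, whereas the other 8 genes differed from DMSO by 0.07 to 0.37 on the log2 scale, to the higher side, although KLHDC2 and RBX1 came out on either side of 0 depending on the scaling. UBE2M, the E2 that works with RBX1 on most cullins, was 15.5-fold lower and KLHDC3 was 22.9-fold lower, or 8.39-fold and 18.4-fold with offsets that remove each library's trend with GC content. Among all 19725 tested genes ordered from the most negative log2 fold change, KLHDC3 stood at place 10 and UBE2M at place 34. A decrease of at least 8-fold was present in 250 tested genes, which is 1.27% of them. In 6 of the 10 genes the DMSO and auxin libraries had separate CPM ranges, with 4 higher and 2 lower after auxin, where 30.0% of all tested genes were higher and 30.4% lower by the same measure. With edgeR's quasi-likelihood test and a Benjamini-Hochberg adjusted p under 0.05, 3 of the 10 were called higher and 2 lower, against 25.4% and 26.9% of all tested genes, or 52.3% in either direction. With the replicate number as a block, 7 were called higher and 2 lower, against 35.5% and 34.4% of all tested genes. Since this contrast was used to choose the genes, nothing is read from these counts.

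**Figure D1:**
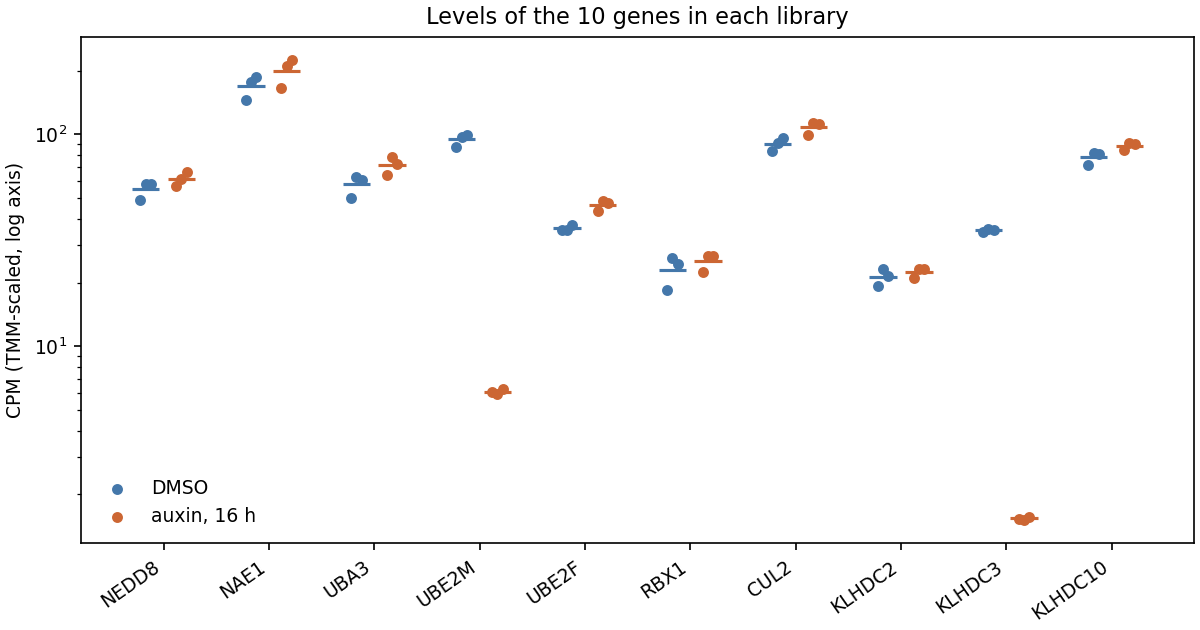
Scaled CPM (log axis) of the 10 genes in the 3 DMSO and 3 auxin libraries. Each point is 1 library and each bar the group mean. UBE2M and KLHDC3 are the genes whose auxin points lie far under their DMSO points, and for the other 8 genes the points of the groups lie close together or overlap.

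NEDD8 (ENSG00000129559.12, chr14:24216852-24232454, minus strand on GRCh38), the modifier itself, had 49.1, 58.4 and 58.4 CPM in DMSO replicates 1, 2 and 3 and 56.9, 61.5 and 66.5 CPM after auxin. The groups overlapped, although the auxin library was the higher one within each of the 3 replicate numbers, and the log2 fold change was 0.16 (SE 0.09). It overlaps GMPR2, a guanosine monophosphate reductase gene on the opposite strand, by 33 exonic bases. GMPR2 fell from 36.0 ± 3.79 to 14.7 ± 1.09 CPM (SD of n = 3) with an edgeR adjusted p of 5.04e-05 while the NEDD8 groups overlapped.

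The E1 subunits were both slightly above DMSO. NAE1 (ENSG00000159593.14, chr16:66802875-66873256, minus strand), the regulatory subunit, had 145, 176 and 187 CPM in DMSO and 165, 209 and 225 CPM after auxin. The groups overlapped because replicate 1 was the lowest of each, but within each of the 3 replicate numbers the auxin library was the higher one. UBA3 (ENSG00000144744.16, chr3:69054730-69080408, minus strand), the catalytic subunit, had 50.2, 63.2 and 61.3 CPM in DMSO and 64.5, 78.5 and 72.9 CPM after auxin. Here the groups did not overlap, although the lowest auxin library, replicate 1, exceeded the highest DMSO library by little. Log2 fold changes were 0.24 (SE 0.14) for NAE1 and 0.31 (SE 0.11) for UBA3.

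In CPM the 2 E2 enzymes of the pathway lay on opposite sides of DMSO, UBE2M by far the further. UBE2M (ENSG00000130725.7, chr19:58555712-58558960, minus strand) had 87.3, 97.0 and 99.8 CPM in DMSO and 6.07, 5.94 and 6.29 CPM after auxin, with a mean of 94.7 ± 6.52 CPM against 6.10 ± 0.18 CPM (SD of n = 3). All 3 auxin libraries lay far below the lowest DMSO library, and the log2 fold change was -3.96 (SE 0.07). UBE2F (ENSG00000184182.18, chr2:237966827-238042782, plus strand), which works with RNF7 on CUL5, had 35.5, 35.5 and 37.3 CPM in DMSO and 43.6, 48.7 and 47.6 CPM after auxin. Its groups did not overlap in CPM either, with auxin on the higher side by 0.37 on the log2 scale (SE 0.06), the largest positive value among the 10 genes.

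RBX1 (ENSG00000100387.8, chr22:40951347-40973309, plus strand), the RING subunit that recruits the charged E2 to CUL2, had 18.5, 26.0 and 24.5 CPM in DMSO and 22.5, 26.6 and 26.6 CPM after auxin, with overlapping groups, the auxin library higher within each of the 3 replicate numbers, and a log2 fold change of 0.13 (SE 0.14). CUL2 (ENSG00000108094.14, chr10:35008551-35090642, minus strand), the scaffold, had 83.5, 91.0 and 96.2 CPM in DMSO and 99.7, 113 and 113 CPM after auxin, with a log2 fold change of 0.26 (SE 0.08). The groups of CUL2 did not overlap. With TMM scaling the scaffold and RING of the ligase thus lay within 0.3 log2 units of DMSO, while the E2 UBE2M did not.

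Of the 3 CUL2 receptors, KLHDC3 was the one with separate and lower auxin values. KLHDC3 (ENSG00000124702.17, chr6:43014103-43021298, plus strand) had 34.7, 35.7 and 35.3 CPM in DMSO and 1.54, 1.51 and 1.57 CPM after auxin, the narrowest spread in CPM of any of the 10 genes in both groups. Its log2 fold change was -4.52 (SE 0.07), and the library with the fewest reads of the gene still held 348 of them. On the TPM scale KLHDC3 was at 20.6 ± 4.28 in DMSO and 0.803 ± 0.107 after auxin (SD of n = 3). Relative to the mean this was wider than the spread of RBX1 (22.9 ± 0.66 and 22.7 ± 0.90 TPM). KLHDC2 (ENSG00000165516.10, chr14:49767608-49786385, plus strand) had 19.2, 23.2 and 21.6 CPM in DMSO and 21.0, 23.2 and 23.2 CPM after auxin, overlapping groups with a log2 fold change of 0.07 (SE 0.09). KLHDC10 (ENSG00000128607.13, chr7:130070510-130135720, plus strand) had 71.7, 82.2 and 80.5 CPM in DMSO and 84.4, 91.3 and 90.1 CPM after auxin, groups that did not overlap, and a log2 fold change of 0.18 (SE 0.07).

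KLHDC3 shares 177 exonic bases with MEA1 on the opposite strand, and KLHDC2 shares 3010 exonic bases with NEMF, likewise on the opposite strand. The libraries were made with a stranded kit, but whether the counting used strand is not given in the sources used here. MEA1 had 40.7, 61.2 and 60.3 CPM in DMSO and 21.1, 30.7 and 35.4 CPM after auxin, a fall of smaller size than that of KLHDC3 (log2 fold change -0.90, SE 0.22, edgeR adjusted p 0.0124, or 0.0928 with GC-corrected offsets). NEMF levels were 99.4 ± 14.2 and 110 ± 16.6 CPM without and with auxin (SD of n = 3) and did not pass the edgeR test (adjusted p 0.447, or 0.00204 with the replicate block). The same-strand readthrough genes NEDD8-MDP1 and UBE2F-SCLY, which share 488 and 688 exonic bases with NEDD8 and UBE2F, stayed below 0.3 CPM in every library. The part of these overlaps in the values of the 10 genes was not tested.

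On the per-length scale the order of the genes changed at the same 2 places. In DMSO the mean levels ran from NAE1 (109 ± 9.82 TPM) and NEDD8 (106 ± 11.2 TPM) through UBE2M (78.8 ± 9.45 TPM), UBE2F (44.6 ± 11.5 TPM), CUL2 (35.8 ± 5.93 TPM), UBA3 (32.3 ± 2.80 TPM), RBX1 (22.9 ± 0.66 TPM) and KLHDC3 (20.6 ± 4.28 TPM) to KLHDC10 (14.2 ± 0.46 TPM) and KLHDC2 (13.7 ± 1.69 TPM), all SD with n = 3. Neighbours whose library ranges overlapped in DMSO were NAE1 with NEDD8, UBE2F with CUL2, CUL2 with UBA3, RBX1 with KLHDC3, and KLHDC10 with KLHDC2. After auxin UBE2M moved from rank 3 to rank 9, at 6.32 ± 1.58 TPM, and KLHDC3 from rank 8 to rank 10, at 0.803 ± 0.107 TPM (SD of n = 3). The remaining 8 genes kept their relative order. On the TPM scale the groups of all 8 overlapped, so the small higher values in CPM of UBE2F, UBA3, CUL2 and KLHDC10 did not separate the groups there.

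The named contrast between the E2 genes was read as a TPM ratio within each library. UBE2M stood at 1.55, 1.98 and 1.89 times UBE2F in DMSO replicates 1, 2 and 3 and at 0.144, 0.110 and 0.114 times UBE2F after auxin. The ratio changed by -3.88 on the log2 TPM scale, and by -4.33 in the edgeR fit of the counts. Put as shares of the summed TPM of both E2 genes, UBE2M held 64.2% ± 3.00 in DMSO and 10.9% ± 1.47 after auxin (SD of n = 3). The sum itself went from 123 ± 21.0 to 57.3 ± 6.55 TPM, so the slightly higher UBE2F was far from the amount by which UBE2M was lower.

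Among the receptors, KLHDC3 stood at 1.62, 1.38 and 1.46 times KLHDC2 in DMSO and at 0.0647, 0.0583 and 0.0607 times KLHDC2 after auxin. Against KLHDC10 the ratio was 1.74, 1.27 and 1.34 in DMSO and 0.0649, 0.0521 and 0.0514 after auxin. The changes in the edgeR fit were -4.59 and -4.70 on the log2 scale. The ratio of KLHDC2 to KLHDC10, which does not involve KLHDC3, was 1.07, 0.918 and 0.918 in DMSO and 1.00, 0.892 and 0.847 after auxin, with overlapping groups. KLHDC3 made up 42.2% ± 3.11 of the summed TPM of the 3 receptor genes in DMSO and 2.84% ± 0.26 after auxin (SD of n = 3), while the sum went from 48.5 ± 6.37 to 28.2 ± 1.48 TPM.

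**Figure D2:**
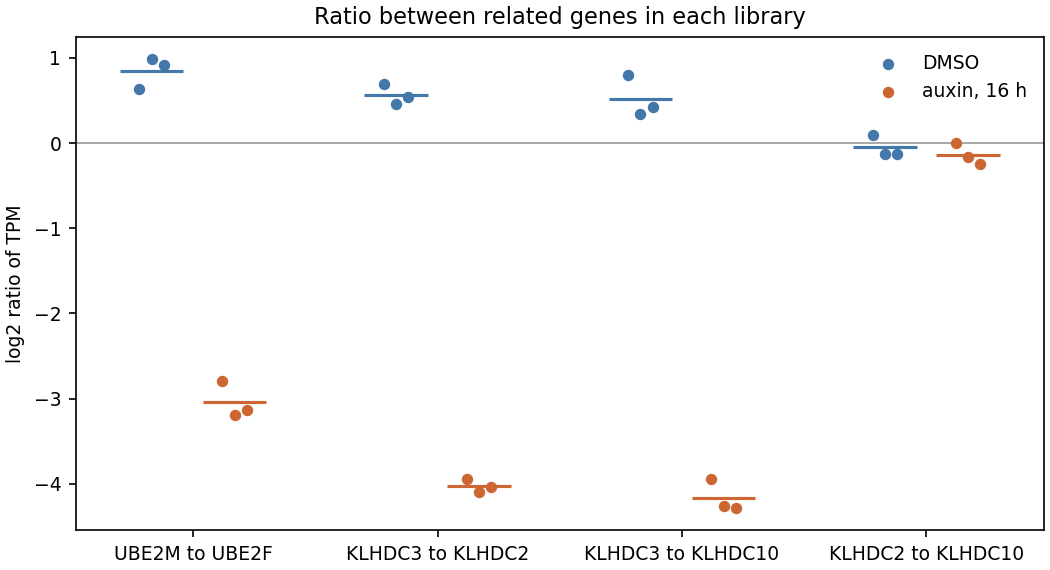
Log2 ratio of TPM between related genes in each library (points) with the group mean (bars), for DMSO and 16 h of auxin. The 3 ratios with UBE2M or KLHDC3 on top are above 0 in every DMSO library and between -4.28 and -2.80 in the auxin libraries, and the ratio of KLHDC2 to KLHDC10 overlaps between the groups.

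The transcript tables list 102 transcripts of the 10 genes, of which 27 reached a mean share of at least 5% of their gene's TPM in 1 of the groups. Shares of the groups did not overlap for 7 transcripts that were higher and 4 that were lower after auxin. Over all genes, 16.0% of 48806 such transcripts were higher and 13.9% lower by the same measure. A share is an estimate from reads that isoforms have in common, and short isoforms weigh more in TPM than in reads.

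KLHDC3 came from a single isoform. KLHDC3-202, with 11 exons, held 99.7% to 99.9% of the gene's TPM in DMSO and 100% after auxin, so its 25.4, 17.8 and 18.3 TPM in DMSO and 0.92, 0.71 and 0.78 TPM after auxin are in effect those of the gene. For UBE2M the isoforms differed in how their levels compared between the groups. The full-length coding isoform UBE2M-201, with 6 exons, had 82.8, 62.0 and 66.7 TPM in DMSO and 4.26, 3.40 and 3.84 TPM after auxin, and its share went from 92.3%, 85.9% and 89.3% to 52.6%, 66.9% and 66.4%. The short coding isoform UBE2M-204 had 5.30, 8.86 and 6.81 TPM in DMSO and 1.59, 0.69 and 1.17 TPM after auxin, lower in level but higher in share, from 9.10% ± 3.18 to 17.8% ± 3.68 (SD of n = 3).

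Both isoforms of UBE2M annotated as retaining an intron gained in share. UBE2M-202 had 0.33 TPM in each DMSO library and 1.40, 0.54 and 0.61 TPM after auxin, the UBE2M isoform whose level was higher, with its share at 0.422% ± 0.048 in DMSO and 12.8% ± 3.86 after auxin (SD of n = 3). UBE2M-205 had 1.01, 0.45 and 0.42 TPM in DMSO and 0.83, 0.45 and 0.16 TPM after auxin, so its level overlapped while its share was higher. By share of the gene's expected counts in place of TPM the shift was smaller. UBE2M-201 then went from 98.3% ± 0.57 to 92.5% ± 2.60 and UBE2M-202 from 0.0482% ± 0.0075 to 2.01% ± 0.83 (SD of n = 3), still without overlap between the groups.

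The intron pieces that these isoforms keep are short. UBE2M-204 keeps all 86 bases of intron 5 of UBE2M-201, UBE2M-202 keeps the first 93 of the 307 bases of intron 4, and UBE2M-205 keeps the whole 132-base intron 2 and 105 bases of intron 4. The first 2 of these pieces are printed 5′ to 3′ on the minus strand of GRCh38, as given in GENCODE release 29 transcripts, at chr19:58556230-58556315 and chr19:58556594-58556686. Capitals mark the splice-site dinucleotides at the intron ends. The piece in UBE2M-202 begins at the 5′ splice site and stops inside the intron, so only 1 dinucleotide is marked.
UBE2M intron 5: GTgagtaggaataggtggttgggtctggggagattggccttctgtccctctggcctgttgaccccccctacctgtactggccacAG
UBE2M intron 4, first part: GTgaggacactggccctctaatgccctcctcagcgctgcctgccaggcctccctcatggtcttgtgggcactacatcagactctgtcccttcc

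UBA3 was the other gene with a marked isoform difference. UBA3-202, the main coding isoform with 18 exons, held 77.5%, 79.9% and 77.4% of the gene's TPM in DMSO and 73.5%, 78.0% and 69.1% after auxin, with overlapping groups. UBA3-201, which lacks exon 2 of UBA3-202, had 2.33, 0.78 and 1.71 TPM in DMSO and 6.47, 4.76 and 5.38 TPM after auxin. Every auxin library was at least 2 times the highest DMSO library, and the share went from 4.88% ± 2.06 to 15.8% ± 2.04 (SD of n = 3). UBA3-203 went the other way, from 6.31% ± 1.99 to 2.49% ± 1.29. The skipped exon is 42 bases long, a whole number of codons (14), and lies at chr3:69080112-69080153 on the minus strand of GRCh38. It is printed 5′ to 3′ from GENCODE release 29, all in lower case because no part of it is singled out.
UBA3 exon 2: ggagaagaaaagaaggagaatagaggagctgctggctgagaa

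**Figure D3:**
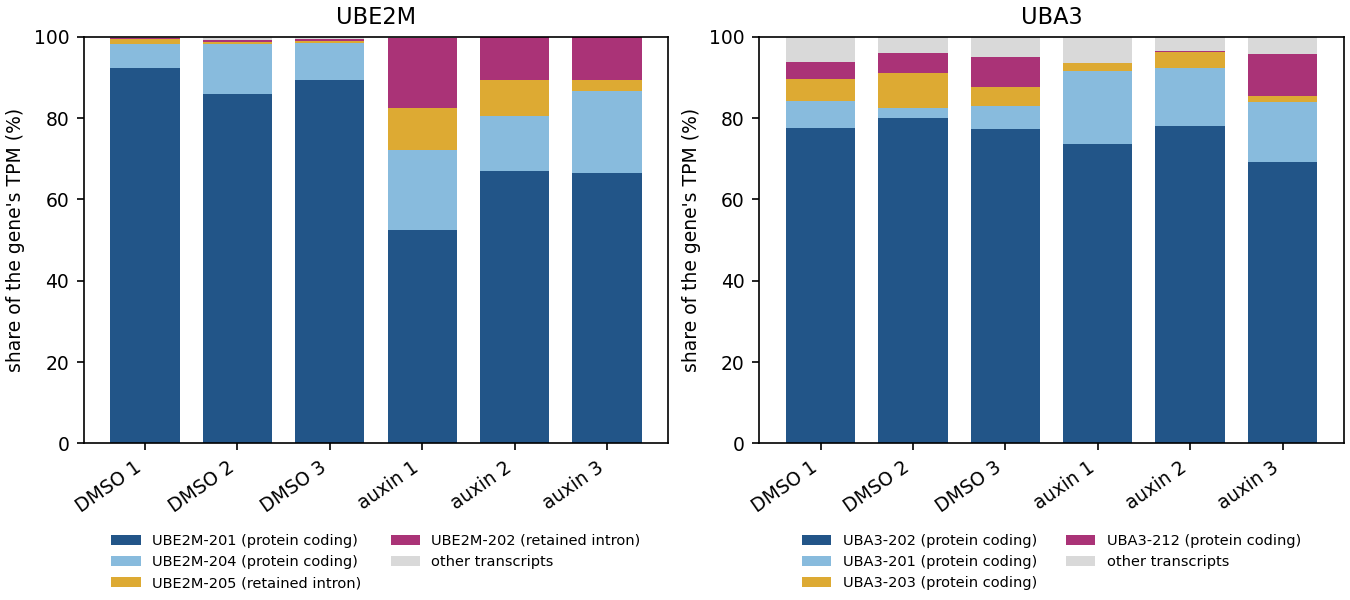
Share of the gene's TPM (percent) held by each isoform of UBE2M (left) and UBA3 (right) in the 3 DMSO and 3 auxin libraries, for isoforms with a mean share of at least 5% in a group. The dark blue part, UBE2M-201, is shorter in every auxin library, and the light blue part of the UBA3 bars, UBA3-201, is taller in every auxin library.

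Shares of the remaining genes differed little between the groups. NEDD8-201 held 90.5% ± 0.74 of NEDD8 in DMSO and 93.7% ± 0.41 after auxin, and the nonsense-mediated decay isoform NEDD8-202 went from 5.19% ± 0.54 to 4.06% ± 0.31 (SD of n = 3). UBE2F was spread over several isoforms, led by UBE2F-204 at 30.8% ± 2.25 and 30.0% ± 1.38, and its decay isoform UBE2F-215 went from 6.95% ± 1.05 to 4.60% ± 0.41. RBX1-201 held 92.7% ± 1.84 and 94.7% ± 0.80 of RBX1, and CUL2-206 held 65.9% ± 4.67 and 67.0% ± 3.93 of CUL2, with overlapping groups for both. NAE1 was divided between NAE1-201, at 53.5% ± 8.04 and 54.1% ± 8.87, and NAE1-204, at 40.2% ± 9.31 and 39.8% ± 10.7. Replicate 1 stood apart here as well. NAE1-201 held 62.4% and 64.2% in replicate 1 of DMSO and auxin, and 46.8% to 51.3% in replicates 2 and 3. CUL2-206 held 60.5% and 62.5% in replicate 1, and 68.1% to 69.4% in replicates 2 and 3.

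For KLHDC2 and KLHDC10 the isoform shares likewise followed the replicate number and not the treatment. KLHDC2-211 held 18.9% and 16.8% of KLHDC2 in replicate 1 of DMSO and auxin and at most 1.47% in the other 4 libraries. KLHDC10-203 held 0% and 0.212% of KLHDC10 in replicate 1 of DMSO and auxin, and 18.1% and 15.6% in DMSO replicates 2 and 3 and 13.9% and 19.8% in auxin replicates 2 and 3. Replicate 1 libraries were also the deepest ones, and the part of depth in these splits was not tested. The decay isoform KLHDC2-207 held 38.8% ± 5.07 of KLHDC2 in DMSO and 40.8% ± 3.60 after auxin (SD of n = 3).

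UBE2M and KLHDC3 differed from the other 8 genes in composition and size. UBE2M spans 3249 bases with a median intron of 132 bases and KLHDC3 spans 7196 bases with a median intron of 150 bases. The other genes span 15603 bases or more, against a median of 21731 bases over all tested genes. GC content of the longest annotated transcript was 65.6% for UBE2M and 56.7% for KLHDC3, and 39.2% to 43.5% for the other 8, beside a median of 48.3%. In bins of GC content, which were added after the data were seen, the median log2 fold change over all tested genes was 0.16 at 40 to 45%, -0.30 at 55 to 60% and -0.74 at 60% or more. The values of UBE2M and KLHDC3 lay far under the medians of their bins. With the GC trend of each library removed by offsets in the fit, the log2 fold change was -3.07 for UBE2M and -4.20 for KLHDC3.

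**Figure D4:**
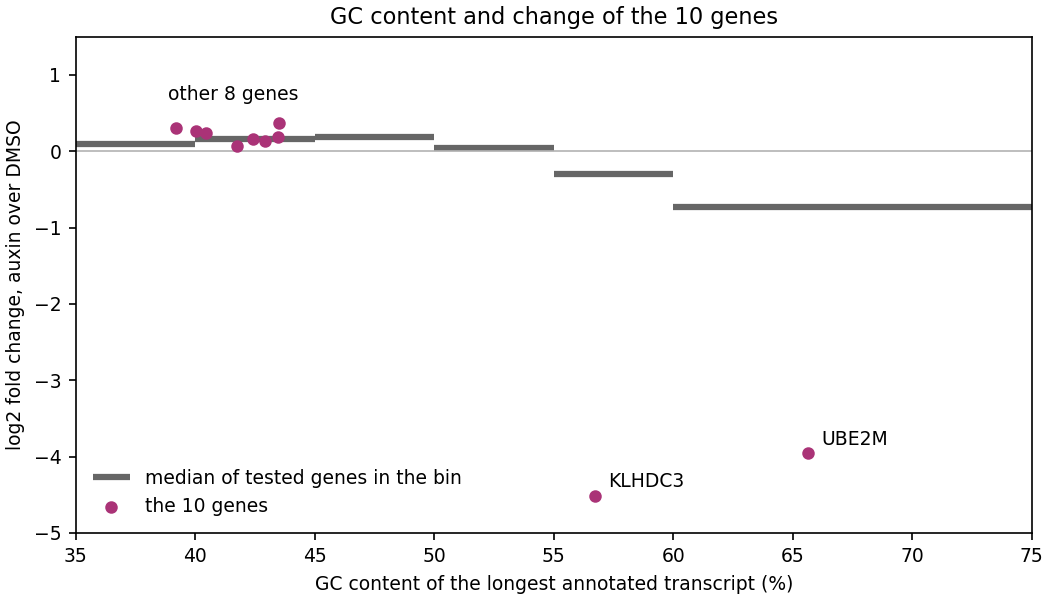
Log2 fold change, auxin over DMSO, of the 10 genes (points) against the GC content of the longest annotated transcript (percent), with the median of all tested genes in each GC bin (bars). KLHDC3 and UBE2M lie at 56.7% and 65.6% GC and far under the bars of their bins, and the other 8 genes lie near the bars at 39.2% to 43.5% GC.

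By gene span, the median log2 fold change over all tested genes was 0.01 under 5 kb, the bin of UBE2M, and -0.14 at 5 to 20 kb, the bin of KLHDC3, NEDD8 and KLHDC2. NEDD8 and KLHDC2, of the same span bin as KLHDC3, were at 0.16 and 0.07.

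Genes with the most similar profile over the 6 libraries were sought among 12838 genes with a mean CPM of at least 1. The measure was the smallest root mean square difference of mean-centred log2(CPM + 0.5). For UBE2M the closest were MCAM (0.133 log2 units), NFKB2 (0.138), TUBG1 (0.140) and PPP5C (0.150). For KLHDC3 they were E2F1 (0.161), LYPLA2 (0.172), KLC2 (0.197), NFKB2 (0.202) and MCAM (0.206). The difference between UBE2M and KLHDC3 themselves was 0.149, on this scale smaller than that of KLHDC3 to any gene outside the 10. The offset of 0.5 understates the change of genes with low CPM, such as KLHDC3 after auxin. In the edgeR fit the log2 fold changes were -3.96 for UBE2M, -4.52 for KLHDC3 and -4.59 for E2F1. No closeness of UBE2M to KLHDC3 is therefore read from the 0.149. NFKB2, which encodes a subunit of the transcription factor NF-kappa-B, and MCAM, a cell adhesion molecule gene, were on both lists. The profiles share the same 6 libraries and mostly reflect the size of the difference between the groups.

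The rest of the pathway was counted from a list of 45 genes of the NEDD8 cycle, other cullins and related receptors, of which 44 were tested. By edgeR's quasi-likelihood test with Benjamini-Hochberg adjustment, 12 (27.3%) rose, 14 (31.8%) fell and 18 did not pass, close to the 25.4% and 26.9% of all tested genes, with a median log2 fold change of -0.03 beside 0.02 over all tested genes. With the replicate number as a block the counts were 17 and 19, with upper-quartile scaling 17 and 11, and with limma on log2(TPM + 1) 3 and 9. With GC-corrected offsets 11 rose and 18 fell, where over all tested genes 5389 rose and 5246 fell. Adding the block gave 17 and 23, where over all tested genes 7100 rose and 6581 fell. The closeness to all tested genes is thus that of the main fit, and the lower counts moved away from it with GC-corrected offsets. RNF7, the RING partner of UBE2F, rose from 24.9, 31.5 and 33.9 CPM in DMSO to 41.2, 50.8 and 51.9 CPM after auxin (log2 fold change 0.67, SE 0.14, edgeR adjusted p 0.00485). In CPM RNF7 thus moved to the same side as UBE2F, whose groups overlapped in TPM. RBX1 overlapped between the groups, although the auxin library was higher within each replicate number. CUL5, the cullin on which RNF7 and UBE2F work, overlapped too. Its log2 fold change was 0.25 (SE 0.10, edgeR adjusted p 0.0737, or 8.91e-05 with the replicate block).

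Of all tested genes, 25.4% were called higher and 26.9% lower, or 35.5% and 34.4% with the replicate block. The COP9 signalosome, which removes NEDD8 from cullins, had 2 of its 10 genes higher and 3 lower, or 4 and 4 with the block. Those that fell were GPS1 (76.3 ± 9.94 to 10.5 ± 0.852 CPM, log2 fold change -2.86, SE 0.11), COPS7A (26.5 ± 2.88 to 5.80 ± 0.699 CPM, -2.19, SE 0.12) and COPS6 (65.7 ± 7.08 to 21.1 ± 2.79 CPM, -1.64, SE 0.12), with SD over n = 3 and edgeR adjusted p of at most 4.46e-05. With GC-corrected offsets the log2 fold changes were smaller, -2.05 for GPS1, -2.06 for COPS7A and -1.52 for COPS6. COPS2 rose from 215 ± 11.1 to 295 ± 22.7 CPM, and the catalytic subunit COPS5 did not pass the test (76.0 ± 6.48 and 71.8 ± 4.09 CPM, adjusted p 0.424, or 0.0441 on the lower side with GC-corrected offsets). NUB1, which promotes the turnover of NEDD8, rose from 63.0 ± 6.47 to 102 ± 14.4 CPM. Of the 5 DCUN1D genes, whose products help the E2 transfer NEDD8, 1 rose and 3 fell (all tested genes: 25.4% and 26.9%).

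Of the 8 other cullin genes, counting ANAPC2, 3 rose and 3 fell (all tested genes: 25.4% and 26.9%). CUL7 fell from 17.0 ± 1.73 to 3.42 ± 0.446 CPM (log2 fold change -2.31, SE 0.13), and CUL1 rose from 160 ± 10.1 to 209 ± 17.0 CPM (0.39, SE 0.08). With GC-corrected offsets CUL7 stood at -1.79 and CUL1 at 0.22. ELOC, which links the receptors to CUL2, rose by 0.28 on the log2 scale. Its partner ELOB was called lower at -0.47, but with GC-corrected offsets it stood at 0.18 and was not called (adjusted p 0.171). Of the 12 other substrate receptors tested, 3 rose and 3 fell, or 4 and 5 with the replicate block (all tested genes: 25.4% and 26.9%, or 35.5% and 34.4% with the block). Among them ZER1, a receptor of CUL2, fell from 17.1 ± 0.367 to 3.55 ± 0.146 CPM, TRPC4AP, a CUL4 receptor, from 92.5 ± 1.93 to 20.7 ± 0.983 CPM, and FEM1A, a CUL2 receptor, rose from 47.5 ± 1.88 to 79.9 ± 1.59 CPM. The log2 fold changes of ZER1, TRPC4AP and FEM1A were -2.27, -2.16 and 0.75, or -1.77, -2.06 and 0.95 with GC-corrected offsets. With limma on log2(TPM + 1), the rises of COPS2, CUL1, ELOC and FEM1A did not pass.

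**Figure D5:**
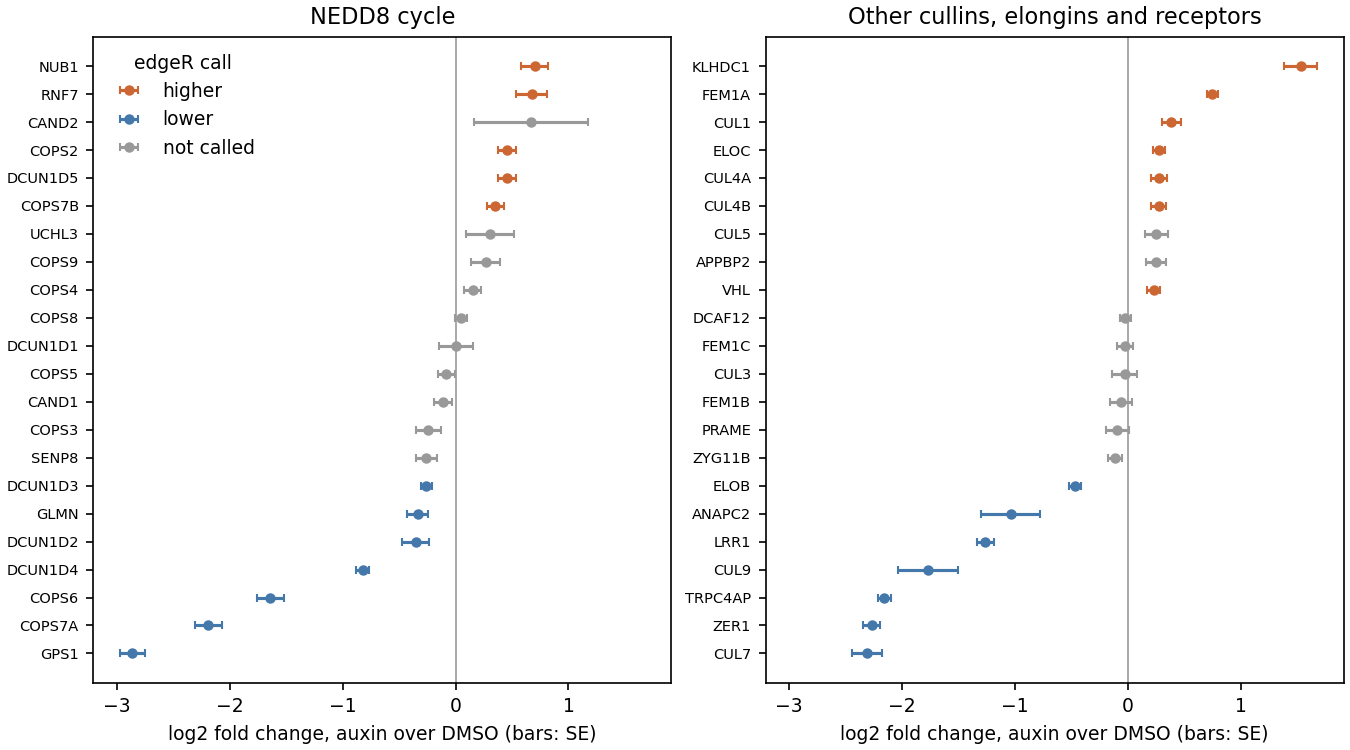
Log2 fold change, auxin over DMSO, with its standard error (bars) for the 44 tested genes of the wider pathway, on the left the NEDD8 cycle and on the right other cullins, elongins and receptors, coloured by the edgeR call. GPS1, COPS7A and COPS6 on the left and CUL7, ZER1 and TRPC4AP on the right have the lowest values, all above the -3.96 of UBE2M and the -4.52 of KLHDC3.

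Related families are set beside the E2 and KLHDC contrasts as a description, since the 10 genes were chosen with their values in view. Of 31 tested ubiquitin E2 genes, 10 rose and 8 fell by edgeR's test, or 18 and 9 with the replicate block (all tested genes: 25.4% and 26.9%, or 35.5% and 34.4% with the block), and their log2 fold changes ran from -1.04 (UBE2O) to 0.58 (UBE2E2), a range that holds UBE2F and not UBE2M. With GC-corrected offsets the ends were UBE2T at -1.04 and CDC34, which was at -0.15 in the main fit, at 0.76. UBE2F, at 0.22, was inside these ends and UBE2M, at -3.07, was not. Of 13 E1 and E2 genes of ubiquitin and other ubiquitin-like proteins, 3 rose and 3 fell, or 5 and 6 with the replicate block, and the lowest was UBA1, the main ubiquitin E1, at -0.87 (SE 0.08). Of the 7 other genes with a KLHDC symbol, 4 were tested. These were named after their values were seen. Low levels kept KLHDC1, KLHDC7A and KLHDC8B out of the naming rule, and KLHDC4 was out because it was not called. KLHDC1 rose from 0.442 ± 0.035 to 1.28 ± 0.124 CPM and KLHDC7A from 0.205 ± 0.022 to 0.394 ± 0.017 CPM. KLHDC8B fell from 1.51 ± 0.038 to 0.239 ± 0.042 CPM (log2 fold change -2.65, SE 0.17). KLHDC4 did not pass edgeR's test (27.0 ± 1.57 and 25.9 ± 1.02 CPM, adjusted p 0.489, or 0.0272 on the higher side with GC-corrected offsets).

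Since replicate 1 stood apart, the values of the 10 genes were recomputed on replicates 2 and 3 of both groups alone. The log2 fold changes were then -4.01 for UBE2M, 0.40 for UBE2F, -4.53 for KLHDC3 (as -4.52 with all libraries), 0.05 for KLHDC2 and 0.16 for KLHDC10. For the 5 others they ranged from 0.07 for RBX1 to 0.28 for UBA3. The contrasts between UBE2M and UBE2F and between KLHDC3 and KLHDC2 were -4.41 and -4.57.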

How the data were processed

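RNA was sequenced from 6 HCT116 libraries, 3 after 16 h of auxin and 3 after DMSO. The labels' protocols give ribosomal RNA depletion, a stranded kit and paired-end reads, and the submitters' processing notes name bcl2fastq 2.20, STAR, DESeq2 and GRCh38. The authors deposited, per the file headers, a table per gene and per transcript in the layout of RSEM with expected counts, which are not normalized, and TPM, which the authors scaled to length and library. The deposited posterior standard deviation of each count is a score of the estimate's precision. The counter, the annotation and the use of strand are not given in the sources used here. All gene IDs matched GENCODE release 29. Rows that name no gene held at most 0.00111% of a library.

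The genes described and all lists were chosen with earlier results of these data known. Rounded expected counts were scaled by TMM after low genes were dropped with filterByExpr, and the groups were compared in edgeR 4.0.16 under R 4.3.3 (glmQLFit, glmQLFTest) over 19725 genes, calling those with a Benjamini-Hochberg adjusted p under 0.05. CPM are the rounded counts scaled by TMM. Tested on simulated data of these 19725 genes with 200 changed, the fit called 57.3% of genes changed 2-fold and 27.7% of those changed 1.5-fold. False calls made up 7.66% of the calls, more than the adjusted p threshold of 0.05 aims for. In the data 52.3% of genes were called, far more than were changed in the simulation, so these rates need not hold for the data. No 2 libraries of a group were alike to within sampling noise. The labels share replicate numbers, and deviations from the group means correlated across genes at 0.65, 0.27 and 0.28 for numbers 1, 2 and 3. DMSO 3 with auxin 2 reached 0.31, so the check sets replicate 1 apart but does not separate numbers 2 and 3. The main fit was unpaired, and adjusted p-values are from it unless another setting is named. Since all 3 same-number values exceeded 0.1, a fit with the number as a block was used as an alternative. Its counts are given beside counts of called genes that it moved by over 1.5 times. P-values measure the spread between these libraries.

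In each list, the called genes at a mean CPM of at least 1 were ordered by log2 fold change and the 3 at either end were named. Further list genes named for their known role were chosen after their values were seen. Alternatives were other scaling factors and filters, DESeq2 1.42.0, limma 3.58.1 on log2(TPM + 1) and log2(TPM + 0.1), GC-corrected offsets, the replicate block, replicates 2 and 3 alone, and each library left out. Protein sequences were not used here, and 1 gene with a profile like that of UBE2M is not reported here.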

Additional observations from a re-analysis of the deposited data

How the results depend on the processing

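UBE2M and KLHDC3 were lower after auxin in the main analysis and in all 17 alternatives, with log2 fold changes from -4.01 to -3.05 and from -4.54 to -3.56. The small values of the other 8 genes moved with the scaling, and RBX1 (-0.01 to 0.25) and KLHDC2 (-0.07 to 0.19) crossed 0. Upper-quartile factors raised the median of all tested genes by 0.12, and limma-trend on TPM changed it by -0.14 with a pseudocount of 1 and by -0.15 with 0.1.

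With GC-corrected offsets the log2 ratio changed by -3.28 for UBE2M to UBE2F, -4.14 for KLHDC3 to KLHDC2 and -4.23 for KLHDC3 to KLHDC10, and with the replicate block added by -3.27, -4.14 and -4.23. On log2(TPM + 1) the 3 changes were -3.68, -3.50 and -3.58, and on log2(TPM + 0.1) -3.86, -4.43 and -4.52. The pseudocount understates the change of low genes by construction. Leaving out 1 library at a time gave -4.37 to -4.27, -4.64 to -4.53 and -4.73 to -4.65. Paired by replicate number (the replicate block), they were -4.32, -4.59 and -4.70.

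Of the 45 pathway genes, 12 rose and 14 fell in the main analysis. The replicate block gave 17 and 19, GC-corrected offsets 11 and 18, the GC-corrected offsets with that block 17 and 23, and limma-trend 3 and 9 at either pseudocount. Leaving out 1 library gave 9 to 15 higher and 13 to 15 lower. Over all genes tested, 5010 rose and 5311 fell, and the numbers were 970 and 2966 with log2(TPM + 1) and 1017 and 3223 with log2(TPM + 0.1). They were 7005 and 6789 with the replicate block, 5389 and 5246 with GC-corrected offsets, and 7100 and 6581 with both. Leaving out 1 library gave 3876 to 4979 and 4493 to 5575. Upper-quartile factors gave 59.7% of calls as higher, beside 48.5% in the main analysis. The cause of these shifts was not tested. For the 24 named list genes, 376 of 408 comparisons kept direction and side of the threshold, 32 kept direction but lost the call, and 0 reversed. ELOB, outside these 24, went from -0.47 to 0.18 with GC-corrected offsets. Of the 10 genes, 0 to 7 were called higher and 2 lower in every setting. UBA6 lost its call in 8 of 17 alternatives, including without DMSO replicate 2 (adjusted p 0.112).

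The share change of UBE2M-201 was -27.2 percentage points of TPM and -5.78 of expected counts. At 348 or more reads per library for KLHDC3 and 1394 or more for UBE2M, counting error was small beside the difference between the groups. It was not compared with the spread between libraries, so the narrow spread of KLHDC3 in CPM is not read as precision. The number of libraries, 3 per group, limits precision as well.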
